A study of Mus musculus with 16 samples.

Results

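The genes that make, destroy and read cyclic AMP (cAMP) were described here across 16 libraries of mouse cerebral cortex. They were chosen by symbol alone: the adenylyl cyclases (Adcy followed by a number), the genes named as cyclic nucleotide phosphodiesterases (Pde, a number and a letter from a to d) and the subunits of protein kinase A (PKA; Prkac and Prkar). The rule took 38 of the 20436 genes in the deposited tables, and these are 10 cyclases, 22 Pde genes and 6 PKA subunits. The rule used no measured value, but it was set with earlier results of these data known. Of the 38, 33 passed the filter on low counts and were tested in RNA, in ribosome footprints and in the footprint-to-RNA comparison. Adcy4, Pde4c, Pde6a, Pde6b and Pde6c were too low to test in either assay.

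cAMP is made from ATP by adenylyl cyclases, which receptors stimulate through Gs and inhibit through Gi proteins. Phosphodiesterases hydrolyse it, and its main effector is PKA, a tetramer whose regulatory subunits release the catalytic subunits when they bind cAMP. In neurons this pathway acts on ion channels, on transcription through CREB and on synaptic plasticity, and altered cAMP signalling has been studied in fragile X syndrome, the disorder caused by loss of the RNA-binding protein FMRP.

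The cortex was taken between postnatal days 28 and 35 from mice of 4 genotypes: WT (wild type), Fmr1 KO (knockout; Fmr1 encodes FMRP), Cpeb1 KO (Cpeb1 encodes a protein that binds polyadenylation elements in mRNA), and a double KO that lacks both. The labels give 1 strain background for all groups, FVB.129P2-/Pde6b+ Tyr c-ch //AntJ, and call each mutant a knockout without naming the allele or a cell type, so the loss is not described there as restricted to any cells. Cytoplasmic lysate of both cortical hemispheres was divided between ribosome profiling, which sequences the mRNA fragments that ribosomes protect, and RNA-seq of rRNA-depleted RNA. Each genotype had 2 libraries per assay. Nothing in the labels says that libraries 1 and 2 came from separate animals, so the p-values measure the spread between these samples, which may be technical.

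Depth ran from 5423919 to 10246479 counts per RNA library and from 16239479 to 24973462 per footprint library, and the 38 genes held 0.565% to 0.628% of RNA counts and 0.534% to 0.553% of footprint counts. The labels were checked on the deleted genes. Fmr1 footprints were at 5.33 to 8.69 CPM (counts scaled to library size, comparable between libraries within a gene) in the 4 footprint libraries labelled as lacking it and at 94.8 to 108 in the other 4, and Cpeb1 footprints at 7.30 to 7.73 against 33.4 to 36.8. In RNA the ranges were 18.4 to 25.9 against 87.1 to 116 CPM for Fmr1 and 15.98 to 19.7 against 27.6 to 43.9 for Cpeb1, whose RNA change in Cpeb1 KO (-1.12 ± 0.182, edgeR adjusted p = 0.225) was itself not past the threshold used below. Summed markers of excitatory cortical neurons in RNA were lower in both single knockouts, at 0.851 of WT in Fmr1 KO and 0.844 in Cpeb1 KO. In footprints the same sums were at 0.988 and 0.961 of WT, and at 1.20 in double KO. Summed microglia markers in RNA were at 1.30 of WT in Fmr1 KO and 1.34 in Cpeb1 KO, and oligodendrocyte markers at 0.877 and 1.01. The microglia value of Cpeb1 KO rests on library 1, with 130 and 81.3 CPM against 73.3 and 84.1 in WT. In footprints the microglia sums were at 1.10 of WT in Fmr1 KO, 1.08 in Cpeb1 KO and 0.721 in double KO. Oligodendrocyte sums there were at 0.840, 1.02 and 0.868. The 7 choroid plexus markers summed to between 18.0 and 242 CPM in RNA and between 25.1 and 156 in footprints, so the libraries differed in RNA of that non-neuronal tissue. The assays differed too: WT libraries 1 and 2 had 66.6 and 242 CPM in RNA but 28.2 and 29.7 in footprints. In Fmr1, Cpeb1 and double KO the mean sums were at 0.727, 0.398 and 0.222 of WT in RNA. In footprints they were at 2.79, 3.74 and 2.07. Equal tissue content of RNA and footprint libraries with the same number was thus not shown. The 9 photoreceptor markers summed to at most 7.19 CPM, and 1 of them had no RNA count in any library.

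In WT cortex the PKA subunits stood at the top of the list, per length of coding sequence. On the TPM scale (the authors' deposited level per length, scaled to the same total in each library), the regulatory subunit Prkar1b had an RNA level of 787 ± 17.6 (SD, n = 2), the catalytic subunit Prkacb 747 ± 16.3, and the regulatory subunit Prkar1a 689 ± 109. The spread of Prkar1a covers both neighbours, so these 3 are not ordered among themselves. The second catalytic gene, Prkaca, was at 324 ± 25.8, below Prkacb by more than the spread of either. The type II regulatory subunits, which most anchoring proteins hold at membranes and at the cytoskeleton, were lower, with 127 ± 0.177 for Prkar2b and 50.0 ± 1.06 for Prkar2a. In footprints Prkar1b (996 ± 54.5 TPM) and Prkar1a (987 ± 34.0) did not differ beyond their spread, and Prkacb followed at 763 ± 44.8. The subunit genes are close relatives, and short reads shared by Prkaca and Prkacb, or by Prkar1a and Prkar1b, are divided between them by estimate.

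Among phosphodiesterases Pde1b, which calcium and calmodulin activate, led with an RNA level of 362 ± 26.0 TPM. Its relatives Pde1a and Pde1c were at 292 ± 4.47 and 7.55 ± 1.65, and the cGMP-stimulated Pde2a at 281 ± 7.89. Pde10a, best known from striatal medium spiny neurons, was at 193 ± 19.6. Of the cAMP-specific Pde4 family, Pde4b was at 119 ± 5.30, Pde4a at 101 ± 12.0 and Pde4d at 80.2 ± 3.41 TPM. Pde4c was at 0.395 ± 0.0212 TPM with 2 to 7 counts per RNA library. The rod and cone genes Pde6a, Pde6b and Pde6c had 0 to 4 RNA counts per library, which for Pde6b, named in the strain, was also the range in footprints, too few to compare any groups. Pde6d, which has no phosphodiesterase activity and carries prenylated proteins between membranes, was at 55.1 ± 3.11 TPM.

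The cyclases were led by Adcy1, which calcium and calmodulin stimulate, at 329 ± 48.6 TPM in RNA. Adcy5, the main cyclase of the striatum, followed at 173 ± 28.8, and Adcy2 stood at 91.6 ± 1.89. Adcy9 (57.03 ± 3.40) and Adcy3 (50.8 ± 3.68) did not differ beyond their spread. Adcy8, which calmodulin also activates, was at 28.6 ± 4.79 and Adcy6 at 22.9 ± 0.559. Adcy7 and the soluble, bicarbonate-sensitive Adcy10 were at 2.03 ± 0.382 and 0.670 ± 0.0566 TPM, and Adcy4 at 0.125 ± 0.0495.

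**Figure D1:**
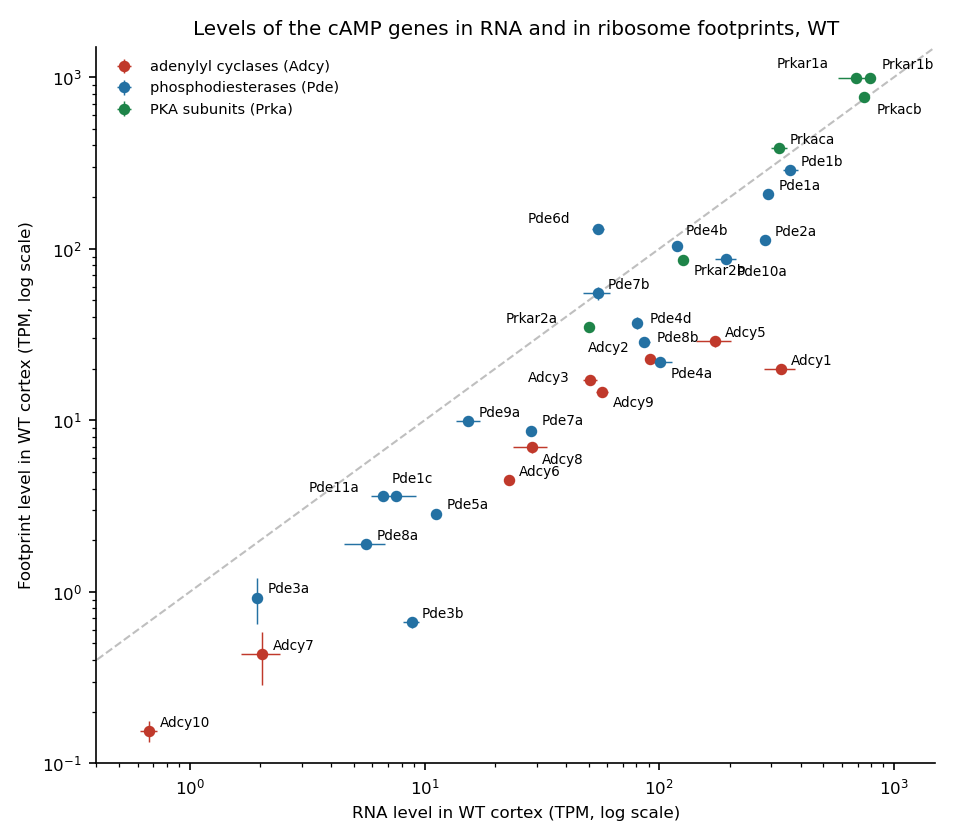
Mean WT level of the 33 tested cAMP genes in RNA (x axis) and in ribosome footprints (y axis), both in TPM on log scales; lines are the SD of 2 libraries and the dashed line marks equal values. The PKA subunits Prkar1b, Prkar1a, Prkaca and Prkacb lie on or above the line, as do Pde6d and Pde7b, and every cyclase lies below it, Adcy1 farthest with 329 TPM in RNA and 20.0 in footprints.

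The families took very different parts of the pathway's RNA and of its footprints. In WT, cyclases made up 14.6% ± 0.261 (SD, n = 2) of the summed RNA TPM of the 38 genes but 2.58% ± 0.0533 of their summed footprint TPM. Pde genes made up 33.0% ± 1.83 of RNA and 24.7% ± 0.0322 of footprints, and PKA subunits 52.5% ± 1.57 of RNA and 72.7% ± 0.0855 of footprints. Over all genotypes the cyclase share stayed between 12.8% and 15.2% of RNA and between 2.40% and 2.97% of footprints, so the RNA and footprint ranges lie far apart in every library. Recomputed from counts per kilobase, the cyclase shares in WT were 14.8% and 2.63%.

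Gene by gene, the footprint-to-RNA ratio was taken as log2 of footprint TPM over RNA TPM of the same genotype and number; the labels do not say that equal numbers share a lysate. Over 13003 genes its median in WT was -0.63, with quartiles of -1.37 and -0.0016. All 9 tested cyclases were below that median, with a median of their own of -2.12. Adcy1 was lowest, with -4.16 and -3.91 in the WT libraries, so that its footprint level was 0.0609 of its RNA level, and 0.477% of all genes were lower. Adcy5 (-2.57 ± 0.354), Adcy6 (-2.35 ± 0.026) and Adcy8 (-2.03 ± 0.133) were also low, and the highest cyclase, Adcy3, was at -1.57 ± 0.117. All 6 PKA subunits were above the median of all genes, from -0.56 ± 0.063 for Prkar2b to 0.53 ± 0.180 for Prkar1a. Of 18 tested Pde genes 12 were below it. They spanned the range from Pde3b, a cGMP-inhibited enzyme, at -3.73 ± 0.0084, to Pde6d at 1.24 ± 0.062, above 98.7% of all genes.

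The 8 pairs of libraries were matched by genotype and number only. Over them Adcy1 ranged from -4.20 to -3.83, Pde3b from -3.92 to -3.31, and Pde6d from 1.05 to 1.70. Adcy1 was lowest except in pair 2 of Fmr1 KO, where Pde3b (-3.92) was below Adcy1 (-3.83). Coding length moved with this ratio across all genes: the 1929 genes of at least 3000 nt had a median of -1.43, and the 11074 shorter ones -0.49. All 10 cyclases have coding sequences of at least 3231 nt (Adcy4), while the 6 PKA subunits run from 1019 nt (Prkacb) to 1248 nt (Prkar2b) and Pde6d has 450 nt. The part of length in the difference between the families was not tested. Adcy3 (3435 nt), the highest cyclase, was slightly below the median of the long genes and the 8 others were lower still. Ratios of levels are a description here, with no test, since TPM of the assays were scaled separately.

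**Figure D2:**
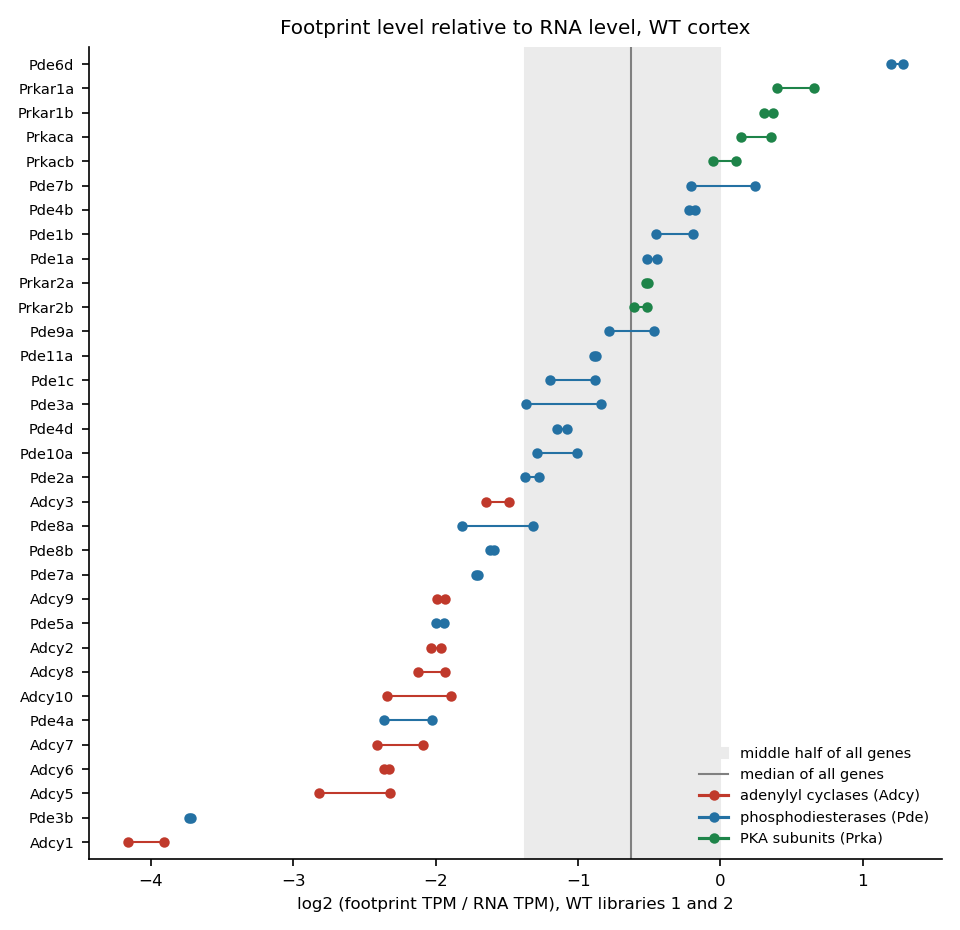
log2 of footprint TPM over RNA TPM for each tested cAMP gene in WT; the points are libraries 1 and 2, the grey line is the median of all genes (-0.63) and the band spans their quartiles. The 9 cyclases (red) lie left of the band, between -4.16 and -1.48, and the means of 4 PKA subunits (green) lie right of it.

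The comparison of each knockout with WT asked which members change when FMRP, CPEB1 or both are lost. A gene was called when its Benjamini-Hochberg adjusted p over all genes tested was under 0.05 in edgeR's quasi-likelihood test. In RNA, 0 of 33 members were called in Fmr1 KO, where 0.00753% of 13287 genes were, 0 in Cpeb1 KO (0% of genes) and 0 in double KO (0.00753%). At an unadjusted p under 0.05 the counts were 2 of 33 in Fmr1 KO (8.09% of all genes), 6 in Cpeb1 KO (11%) and 0 in double KO (4.23%). DESeq2 called 2 members in Cpeb1 KO, Adcy5 and Pde10a (0.465% of genes), and 0 in Fmr1 KO (0.0376%) and double KO (0.0226%).

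By family, no direction was shared by all members in RNA. In Fmr1 KO 7 of 9 tested cyclases, 10 of 18 Pde genes and 2 of 6 PKA subunits were below WT in fitted level, and in Cpeb1 KO 5 of 9, 14 of 18 and 3 of 6 were. The median log2 change of the 33 members was -0.062 in Fmr1 KO and -0.096 in Cpeb1 KO, beside 0.023 and 0.022 over all genes tested. In double KO it was -0.035 beside -0.0018. Members whose KO libraries both lay outside the WT pair numbered 13 of 33 in Fmr1 KO (39.4%, beside 41.3% of all genes tested), 13 in Cpeb1 KO (39.4% beside 40.9%) and 8 in double KO (24.2% beside 29.7%). In each single knockout 4 of the 13 were above WT (12.1% of members, beside 22.6% of all genes in Fmr1 KO and 22.3% in Cpeb1 KO) and 9 below (27.3%, beside 18.7% and 18.6%). In footprints the shares in either direction were 36.4% in Fmr1 KO (30.7% of all genes), 21.2% in Cpeb1 KO (29.9%) and 60.6% in double KO (52.4%). Members of the authors' deposited tables gave 0 calls for Fmr1 KO RNA (0.331% of genes called) and double KO RNA (0.0133%) against WT and for double against Fmr1 KO RNA (1.34%). They also gave 0 in footprints for Fmr1 KO (0.152%), Cpeb1 KO (0.138%) and double KO (4.9%) against WT and for double against Fmr1 KO (2.35%), and 0 in translational efficiency for double KO (0.152%).

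In Cpeb1 KO the RNA of Adcy5 and Pde10a stood lowest. Adcy5 was at 396 and 501 CPM in the WT libraries, 297 and 461 in Fmr1 KO, 235 and 242 in Cpeb1 KO, and 472 and 437 in double KO. Both Cpeb1 KO libraries were thus below the other 6. The log2 change against WT was -0.90 ± 0.159 (SE; edgeR adjusted p = 0.225), which did not pass the threshold, and the range of the adjusted p over 15 alternatives was 0.000531 to 0.889. It was under 0.05 in 5 of them, among these DESeq2 (adjusted p = 0.000531) and the edgeR fit of the 2 genotypes alone (adjusted p = 0.0175, where 71 genes were called in all). In the authors' deposited table Adcy5 was lower in Cpeb1 KO by a log2 change of -0.64 (adjusted p = 1.42e-05).

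Pde10a had 294 and 338 CPM in WT RNA, 288 and 294 in Fmr1 KO, 222 and 182 in Cpeb1 KO, and 316 and 301 in double KO. Again Cpeb1 KO libraries were below all others, with a log2 change against WT of -0.65 ± 0.126 (edgeR adjusted p = 0.225, range over 15 alternatives 0.0082 to 0.863; DESeq2 adjusted p = 0.0082). The authors' deposited table gave -0.50 (adjusted p = 0.000115) and called these 2 members in that comparison, where 0.961% of its genes were called. Pde1b was also lowest in Cpeb1 KO libraries, with 373 and 414 CPM in WT, 375 and 397 in Fmr1 KO, 336 and 256 in Cpeb1 KO, and 422 and 382 in double KO (log2 change in Cpeb1 KO -0.41 ± 0.135, edgeR adjusted p = 0.36). Pde7b, a cAMP-specific enzyme, was at 44.6 and 53.9 CPM in WT and at 38.4 and 40.5 in Cpeb1 KO (-0.31 ± 0.129, edgeR adjusted p = 0.422). Pde4a, which hydrolyses cAMP alone, was at 131 and 149 CPM in WT and at 85.7 and 128 in Cpeb1 KO (-0.41 ± 0.139, edgeR adjusted p = 0.373). Its change was -0.18 without Cpeb1 KO library 1 and -0.64 without library 2 (adjusted p = 0.97 and 0.0579).

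Pde5a, which hydrolyses cGMP, had the largest change upward in Cpeb1 KO, with 25.6 and 27.6 CPM against 20.2 and 19.5 in WT. Its log2 change of 0.42 ± 0.163 did not pass the threshold (edgeR adjusted p = 0.408).

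In footprints the corresponding differences were near 0. Adcy5 footprints were at 109 and 97.2 CPM in WT, 85.0 and 125 in Fmr1 KO, 97.7 and 108 in Cpeb1 KO, and 98.8 and 109 in double KO, and the groups overlap throughout. The log2 change in Cpeb1 KO was -0.012 ± 0.126 (95% interval -0.29 to 0.26). The RNA value of -0.90 has its own error, and the direct test of footprints relative to RNA, given below, did not pass in edgeR. Pde10a footprints ranged from 177 to 200 CPM over all 8 libraries (Cpeb1 KO against WT -0.047 ± 0.078, 95% interval -0.22 to 0.12). For Pde1b the footprint change was 0.004 ± 0.082 and for Pde7b 0.024 ± 0.089. Footprints relative to RNA, in Cpeb1 KO against WT, gave a log2 change of 0.91 ± 0.229 for Adcy5 (edgeR adjusted p = 0.316, range over 23 alternatives 0.049 to 0.863) and 0.62 ± 0.151 for Pde10a (adjusted p = 0.304, range 0.0756 to 0.863). In that comparison edgeR called 0 of 33 members and 0% of 13027 genes, with 6 members and 9.4% of genes at an unadjusted p under 0.05. DESeq2 called 1 member, Adcy5 (adjusted p = 0.049), and 0.17% of genes. The authors' deposited table of translational efficiency, where 2.47% of genes were called, called Adcy5 (0.82), Pde10a (0.55) and Pde1b (0.38), all higher in Cpeb1 KO.

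**Figure D3:**
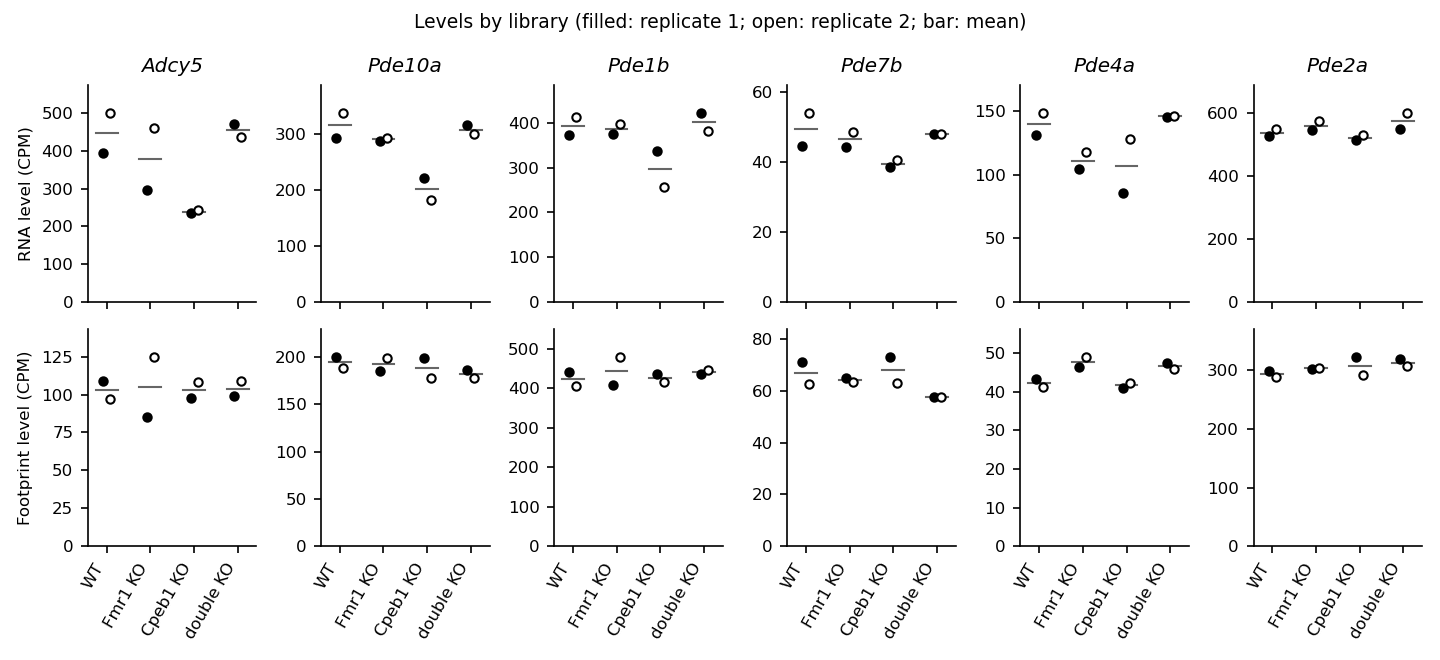
Level of 6 members in each library in CPM, RNA above and footprints below; filled points are replicate 1, open points replicate 2 and bars the mean of 2. Adcy5, Pde10a and Pde1b RNA is lowest in both Cpeb1 KO libraries (Adcy5 235 and 242 CPM), Pde4a RNA is lower in the single knockouts, and Cpeb1 KO footprints of Adcy5 (97.7 and 108 CPM) lie within the range of the other libraries.

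Adcy5, Pde10a, Pde1b and Pde7b are well known from the striatum, which lies under the cortex. The list of striatal markers set beside them was also chosen with earlier results of these data known. The 16 striatal marker genes, among them the dopamine receptors Drd1 and Drd2, the adenosine receptor Adora2a and the phosphatase inhibitor Ppp1r1b, summed to 733 and 1010 CPM in WT RNA, 750 and 863 in Fmr1 KO, 630 and 420 in Cpeb1 KO, and 796 and 894 in double KO. All 16 had a lower fitted RNA level in Cpeb1 KO than in WT (median log2 change -0.65, beside 0.022 over all genes tested). In edgeR 0 of 16 were called (0% of all genes), and 10 had an unadjusted p under 0.05 (11% of all genes). Of the 16, 10 were below both WT libraries in both Cpeb1 KO libraries, as were 18.6% of all genes tested. Footprints of the 16 markers summed to 1292 and 1135 CPM in WT and to 1359 and 1249 in Cpeb1 KO, and 12 of 16 were higher there (median 0.085). Both Cpeb1 KO footprint libraries lay above both WT libraries for 3 of the 16 and below for 0, beside 15.5% and 14.4% of all genes tested. None of the 16 was at 0 in every library. Adcy5, Pde10a, Pde1b and Pde7b were thus lowest in the RNA libraries with the lowest striatal sums, and the part of striatal RNA in their RNA difference was not tested. In such bulk samples, fewer cells of a type and less RNA per cell cannot be told apart.

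**Figure D4:**
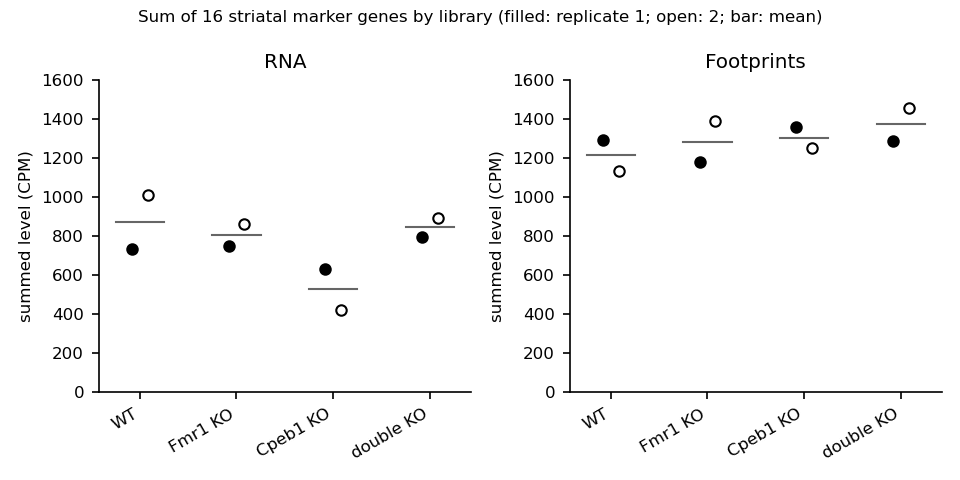
Summed level of 16 striatal marker genes per library in CPM, RNA left and footprints right; filled points are replicate 1, open points replicate 2 and bars the mean. The Cpeb1 KO libraries are the lowest in RNA (630 and 420 CPM), while all footprint sums lie between 1135 and 1457 CPM.

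In Fmr1 KO the members at an unadjusted p under 0.05 in RNA were Pde3a and Pde4a. Pde4a stood at 131 and 149 CPM in WT and at 105 and 118 in Fmr1 KO (log2 change -0.33 ± 0.139, edgeR adjusted p = 0.602). Pde3a, a scarce cGMP-inhibited enzyme with 26 to 72 RNA counts per library, had 7.22 and 7.01 CPM in Fmr1 KO against at most 4.69 in WT, which did not pass the threshold (0.65 ± 0.256, edgeR adjusted p = 0.59). Among members averaging at least 50 counts the largest RNA changes were -0.36 ± 0.327 for Pde8a and 0.17 ± 0.248 for Pde1c, both with 95% intervals that span 0. Relative to RNA, Pde4a footprints were higher in Fmr1 KO by 0.53 ± 0.170 (edgeR adjusted p = 0.537). The edgeR test of that ratio called 0 of 33 members and 0.0154% of genes, with 2 members and 7.88% of genes at an unadjusted p under 0.05, and DESeq2 called 0 members and 0.0154% of genes. The authors' deposited table of translational efficiency called Pde4a there (0.47, adjusted p = 0.0083), in a table with 2.96% of genes called.

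In footprints, no member passed the threshold against WT in edgeR or DESeq2. Against WT, edgeR called 0 of 33 members in Fmr1 KO (0.0581% of 13774 genes), 0 in Cpeb1 KO (0.0799%) and 0 in double KO (2.65%), and DESeq2 called 0 in all 3 (0.109%, 0.116% and 5.74% of genes). At an unadjusted p under 0.05 there was 1 member in Fmr1 KO (5.09% of genes), 0 in Cpeb1 KO (3.88%) and 2 in double KO (21%). The member in Fmr1 KO was Adcy3, a cyclase of olfactory neurons and of neuronal cilia, with 55.9 and 54.9 CPM in WT and 61.9 and 64.8 in the knockout (0.19 ± 0.087, edgeR adjusted p = 0.955). In double KO they were Pde7b, with 57.7 and 57.5 CPM against 71.1 and 62.5 in WT (-0.21 ± 0.090, edgeR adjusted p = 0.201), and Pde4b (-0.16 ± 0.071, edgeR adjusted p = 0.217).

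Among members of at least 50 mean counts the largest downward changes in footprints were those of Pde8a and Pde7a. Pde8a, a high-affinity cAMP enzyme, had 4.51 and 4.19 CPM in WT, 3.12 and 3.50 in Fmr1 KO, 4.86 and 3.92 in Cpeb1 KO, and 3.52 and 3.23 in double KO. Both libraries of Fmr1 KO and of double KO were below both WT libraries, with log2 changes of -0.39 ± 0.202 and -0.37 ± 0.205 that did not pass (edgeR adjusted p = 0.956 and 0.331). Pde7a had the lowest footprint change in Cpeb1 KO, from 11.4 and 11.3 CPM in WT to 10.5 and 9.41 (-0.19 ± 0.135). Upward, the largest were Adcy3 in both single knockouts (0.17 ± 0.087 in Cpeb1 KO) and Adcy9 in double KO, with 59.5 and 69.9 CPM against 57.4 and 54.6 in WT (0.20 ± 0.107, edgeR adjusted p = 0.296). In double KO RNA they were Pde11a, a dual-specificity enzyme, with 10.5 and 8.75 CPM against 13.1 and 12.4 in WT (-0.40 ± 0.207), and Adcy1 (0.12 ± 0.126). For footprints relative to RNA the largest downward changes were those of Pde3a in Fmr1 KO (-0.60 ± 0.342) and Pde7a in Cpeb1 KO (-0.30 ± 0.199). In double KO they were -0.51 ± 0.402 for Pde8a and, upward, 0.39 ± 0.249 for Pde11a. None of these passed in edgeR.

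The RNA changes of Pde2a, Pde4d, Adcy1 and the PKA subunits against WT lay between -0.22 and 0.15. Pde2a RNA ranged from 514 to 600 CPM over the 8 libraries and its footprints from 289 to 322, and the 95% interval of its RNA change in Fmr1 KO ran from -0.16 to 0.28. Pde4d had 119 and 126 CPM in WT RNA, 103 and 119 in Fmr1 KO, 94.5 and 130 in Cpeb1 KO, and 114 and 107 in double KO, where both double KO libraries lay below WT and both single knockouts overlapped it. Its change in Fmr1 KO was -0.15 ± 0.136 (95% interval -0.45 to 0.15). Adcy1 RNA ranged from 671 to 839 CPM, and its footprints from 59.3 to 72.8. The catalytic subunit Prkacb ranged from 466 to 574 CPM in RNA and Prkaca from 192 to 241. Prkar1b had 613 and 594 CPM in WT RNA, 511 and 528 in Fmr1 KO, 493 and 603 in Cpeb1 KO, and 557 and 615 in double KO (Fmr1 KO against WT -0.22 ± 0.112, edgeR adjusted p = 0.619). Prkar2b RNA lay between 95.3 and 119 CPM. For the 6 PKA subunits the footprint changes against WT lay between -0.05 and 0.08 in both single knockouts and between 0.019 and 0.098 in double KO.

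**Figure D5:**
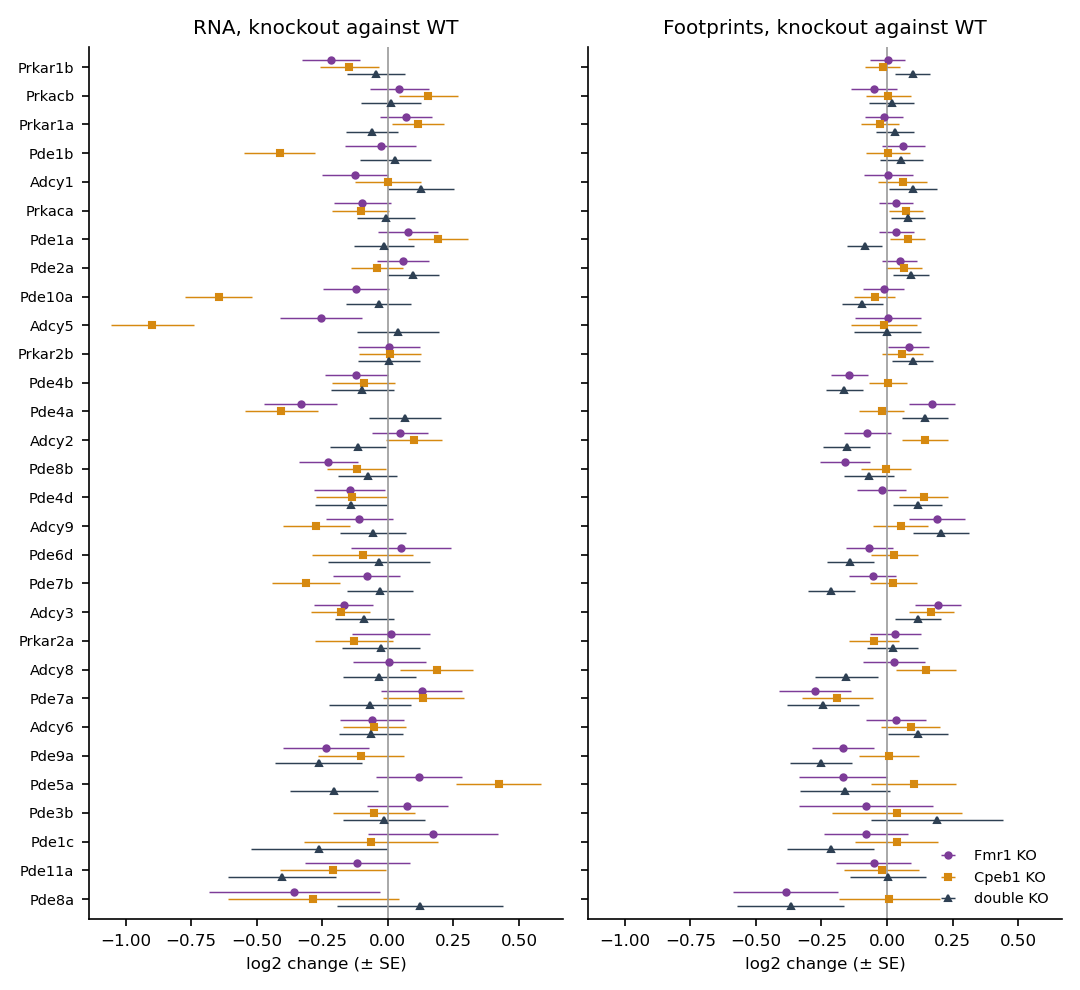
log2 change of each knockout against WT with its standard error (bars) in RNA (left) and footprints (right), members ordered by WT RNA level from the top; Adcy7, Pde3a and Adcy10, which are scarce, are left out. The Cpeb1 KO (squares) stands apart in RNA for Adcy5 (-0.90), Pde10a (-0.65) and Pde1b (-0.41), and footprint changes stay between -0.39 and 0.20.

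In double KO RNA, Adcy5 and Pde10a stood above Cpeb1 KO. This comparison shares the Cpeb1 KO libraries with those above. Against Cpeb1 KO, Adcy5 RNA was 0.94 ± 0.159 higher (edgeR adjusted p = 0.0955, range over 15 alternatives 8.16e-05 to 0.181) and Pde10a 0.61 ± 0.126 higher (adjusted p = 0.0955, range 0.0048 to 0.181). Pde4a was at 85.7 and 128 CPM in Cpeb1 KO and at 146 and 147 in double KO (0.47 ± 0.139, edgeR adjusted p = 0.126), and Pde5a was at 19.5 and 14.8 in double KO (-0.63 ± 0.165, edgeR adjusted p = 0.113). Here edgeR called 0 of 33 members and 0.00753% of genes, 5 members and 19.2% of genes had an unadjusted p under 0.05, and DESeq2 called 2 members, Adcy5 and Pde10a, and 2.45% of genes. Adcy5 passed in edgeR without Cpeb1 KO library 2 (0.82, adjusted p = 0.0315) or without double KO library 2 (1.17, adjusted p = 0.0108), and Pde4a without Cpeb1 KO library 2 (0.71, adjusted p = 0.0273). Those omissions called 371 and 463 genes in all, against 1 with every library. The authors' deposited table, with 3.04% of genes called, called Adcy5, Pde10a, Pde1b and Pde4a, all higher in double KO.

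Footprints of Adcy2, a cyclase that Gβγ subunits stimulate, were at 75.2 and 81.7 CPM in Cpeb1 KO and at 64.0 and 63.3 in double KO, with 71.6 and 70.1 in WT and 63.3 and 71.4 in Fmr1 KO. The difference between Cpeb1 and double KOs was -0.30 ± 0.088 (edgeR adjusted p = 0.064, range over 15 alternatives 0.0221 to 0.372). In that comparison edgeR called 0 of 33 members and 5.6% of genes, with 6 members and 24.6% of genes at an unadjusted p under 0.05, and DESeq2 called 0 members and 9.55% of genes. Those 6 were Adcy2, Adcy8, Pde7b, Pde9a, Pde4b and Pde1a, with log2 changes from -0.30 to -0.16. Adcy2 passed in edgeR without WT library 1 (adjusted p = 0.0235) or without WT library 2 (adjusted p = 0.0221), and in the fit of the 2 genotypes alone (adjusted p = 0.0349), which called 1987, 1986 and 1701 genes in all, against 772. In the authors' deposited table it was called (-0.25, adjusted p = 0.03), with 7.73% of genes. Glial markers were called lower there too, 2 of 10 for astrocytes, 2 of 10 for microglia and 1 of 11 for oligodendrocytes, and 2 of 10 excitatory neuron markers higher, and their part in the Adcy2 value was not tested. Against Fmr1 KO, double KO had 0 of 33 members called in edgeR in RNA (0% of genes) and 0 in footprints (0.334%), and DESeq2 called 0 in both (0.521% and 2.25% of genes). At an unadjusted p under 0.05 there was 1 member in RNA (15.7% of genes) and 0 in footprints (15.9%). The member in RNA was Pde4a (0.40 ± 0.139, edgeR adjusted p = 0.226). The footprint-to-RNA comparison of double KO with WT called 0 of 33 members in edgeR (0.00768% of genes), 0 at an unadjusted p under 0.05 (3.5% of genes) and 0 in DESeq2 (0.0154% of genes).

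The authors also set both single knockouts together against WT and double KO, 4 RNA libraries against 4. Each group of 4 mixes genotypes, so its spread is not that of replicates. In RNA, edgeR called 2 of 33 members, Adcy5 and Pde4a, both lower in the single knockouts, beside 7.31% of all 13287 genes (971 genes) in either direction and 5.09% lower. A share of 2 in 33 is close to that background. At an unadjusted p under 0.05 there were 5 members and 25.7% of genes. DESeq2 also called 2, Pde4a and Pde10a, beside 11.2% of genes, and the authors' deposited table called these as well (-0.34 and -0.28), with 9.09% of its genes. Pde4a (chr9:21165700-21213248, mm10; NCBI gene 18577) had 105, 118, 85.7 and 128 CPM in the single knockout libraries and 131, 149, 146 and 147 in the others, so the groups do not overlap. It fell by 0.40 ± 0.089 on the log2 scale (edgeR adjusted p = 0.0187, range over 15 alternatives 0.00127 to 0.0848). Adcy5 (chr16:35154494-35305743, mm10; NCBI gene 224129) had 297, 461, 235 and 242 CPM in the single knockouts against 396, 501, 472 and 437, so the groups overlap through Fmr1 KO library 2. It fell by 0.56 ± 0.152 (edgeR adjusted p = 0.0381, range 0.000307 to 0.136).

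Both calls depended on single libraries. The number of members called was 0 without WT library 1, without Fmr1 KO library 1, without Cpeb1 KO library 1 or without double KO library 1, and it was 1 without WT library 2 or without Cpeb1 KO library 2. Over all genes those omissions gave 300, 140, 161 and 260 calls in the order named, and 1278 and 973, against 971 with every library. The fit without the replicate number called 0 members and 380 genes in all, with an adjusted p of 0.0733 for Adcy5 and 0.0612 for Pde4a, and Adcy5 was not called in DESeq2 (adjusted p = 0.0979). Besides Pde4a, Pde10a (lower, 182 to 293.67 against 294.02 to 338 CPM) and Pde5a (higher, 20.25 to 27.6 against 14.8 to 20.21 CPM) had groups that narrowly missed each other, which makes 3 of 33 members beside 12.2% of all genes tested. In footprints edgeR called 0 of 33 members and 0% of genes, 0 members and 6.95% of genes had an unadjusted p under 0.05, and DESeq2 called 0 members and 0.029% of genes. Pde4a footprints were at 46.3, 49.0, 41.0 and 42.4 CPM in the single knockouts and at 43.3, 41.3, 47.6 and 46.0 in the rest (0.005 ± 0.081). For the footprint-to-RNA ratio edgeR called 0 of 33 members (0.0154% of genes), with 6 members and 14.1% of genes at an unadjusted p under 0.05, and DESeq2 called 2, Adcy5 and Pde10a, and 1.47% of genes.

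Markers of several cell types were called in the same RNA comparison, where 7.31% of all genes were called in either direction and 5.09% lower. Of 10 excitatory cortical neuron markers 3 were lower (Cux2, Nrgn and Tbr1), with summed levels of 1791 to 2127 CPM in the single knockout libraries and 2295 to 2457 in the other 4. The striatal list had 2 of 16 lower (Ppp1r1b and Rasd2), with sums of 420 to 863 against 733 to 1010 CPM. The oligodendrocyte list had 2 of 11 lower, the astrocyte list 1 of 10 higher and 1 lower, and the interneuron list 1 of 10 higher. The microglia and vascular lists had 0 of 10 each called in edgeR, and 4 and 2 at an unadjusted p under 0.05 (25.7% of all genes). Their part in the Adcy5 and Pde4a calls was not tested.

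The sequences before the transcription starts of the 2 called genes are shown because both were called lower in the same RNA comparison. They are RefSeq sequence of assembly GRCm38.p6 (the primary chromosomes of mm10), plus strand, 250 bases up to a start that RefSeq gives, with GC boxes (GGGCGG or CCGCCC) and cAMP response element half-sites (TGACG or CGTCA) in capitals.
Adcy5, chr16:35154614-35154863: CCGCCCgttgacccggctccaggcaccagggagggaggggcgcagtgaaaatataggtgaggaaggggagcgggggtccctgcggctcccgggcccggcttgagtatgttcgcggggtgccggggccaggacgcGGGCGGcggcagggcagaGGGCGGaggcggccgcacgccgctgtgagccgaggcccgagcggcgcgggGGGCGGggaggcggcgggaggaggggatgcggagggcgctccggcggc
Pde4a, first start, chr9:21165464-21165713: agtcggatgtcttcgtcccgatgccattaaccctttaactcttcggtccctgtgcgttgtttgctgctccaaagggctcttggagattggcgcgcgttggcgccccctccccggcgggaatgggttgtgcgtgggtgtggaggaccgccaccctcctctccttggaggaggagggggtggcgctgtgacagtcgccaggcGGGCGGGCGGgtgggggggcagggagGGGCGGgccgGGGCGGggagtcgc
Pde4a, second start, chr9:21183851-21184100: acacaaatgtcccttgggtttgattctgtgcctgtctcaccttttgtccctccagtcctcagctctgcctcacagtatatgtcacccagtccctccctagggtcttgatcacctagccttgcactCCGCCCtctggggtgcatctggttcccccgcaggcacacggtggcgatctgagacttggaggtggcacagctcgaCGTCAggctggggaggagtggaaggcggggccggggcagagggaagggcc
The Adcy5 window holds 4 GC boxes and no half-site, the first Pde4a window 4 GC boxes, of which a pair overlap, and the second 1 GC box and 1 half-site. Another Pde4a window, chr9:21196455-21196704, holds 0 of either and is not printed. The Adcy5 gene span given above begins upstream of its window, so the start used here is not the first base of that span. GC boxes are common: 32.7% of 32851 RefSeq windows of this length hold 1 on either strand, and 37.3% of the 67 windows of 30 member genes do. The half-site is in 17.8% of all windows and 17.9% of member windows, and the full palindrome TGACGTCA, which contains the half-site on both strands, is in 1.55% of all windows and in 1 member window, of Prkar1a. A match is a description of the letters only.

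The rest of the pathway was described from lists of 119 genes, of which 106 were tested in RNA. In the pooled RNA comparison edgeR called 7 of the 106, 1 higher and 6 lower in the single knockouts, which is near the 7.31% of all genes, and their median change was -0.012 beside 0.026 over all genes. Of the receptors that couple to Gs, the β1-adrenergic receptor Adrb1 fell by 0.46 ± 0.108 and the serotonin receptor Htr6 by 0.79 ± 0.202 (edgeR adjusted p = 0.0241 and 0.0302). None of the 20 tested Gi-coupled receptors was called in edgeR, and 5 had an unadjusted p under 0.05, beside 25.7% of all genes. Of the 13 tested G protein genes, Gnai3 rose by 0.36 ± 0.089 (26.1 to 30.2 CPM in WT and double KO, 34.3 to 40.03 in the single knockouts) and Gnao1 fell by 0.32 ± 0.082. Downstream of cAMP, the channel gene Hcn2 fell by 0.51 ± 0.094, the CREB coactivator Crtc1 by 0.75 ± 0.130, and the PKA target Ppp1r1b, which is also one of the striatal markers, by 0.60 ± 0.160 (edgeR adjusted p = 0.0091, 0.0087 and 0.0371). The 20 tested A-kinase anchoring protein genes gave 0 calls in edgeR, a median change of 0.005, and 3 genes at an unadjusted p under 0.05 (25.7% of all genes).

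Among the list genes in footprints, Adrb1 was the gene called in double KO against WT. Adrb1 footprints were at 14.2 and 16.2 CPM in WT, 15.9 and 19.8 in Fmr1 KO, 14.9 and 21.6 in Cpeb1 KO, and 23.2 and 25.6 in double KO. Double KO libraries were above the other 6, and Adrb1 rose by 0.69 ± 0.119 against WT (edgeR adjusted p = 0.0173). It was the single call among 106 tested list genes there, a lower share than the 2.65% of all genes called. Against Cpeb1 KO, where 5.6% of all genes were called, Adrb1 was called as well (0.44 ± 0.118, adjusted p = 0.0497). Each single knockout against WT gave 0 of 106 calls in edgeR (0.0581% of all genes in Fmr1 KO and 0.0799% in Cpeb1 KO), with 6 in Fmr1 KO (5.09% of all genes) and 3 in Cpeb1 KO (3.88%) at an unadjusted p under 0.05.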

How the data were processed

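The authors made RNA-seq and ribosome profiling libraries of cortex lysate and deposited an RSEM gene table for each of 16 libraries, per the file headers with expected counts, TPM and feature lengths. Per the submitters' processing notes, cutadapt, Bowtie2, TopHat2, RSEM and DESeq2 were used with build mm10; versions and roles are not given in the sources used here. The RNA features have lengths that are multiples of 3 in 99.6% of genes with a single transcript, so counts appear to cover coding sequence. Footprint features were 57 nt shorter in 99.6% of these genes, so RNA and footprint TPM of a gene cover slightly different stretches. The difference is a larger part of a short gene such as Pde6d (450 nt), and its part in the footprint-to-RNA ratios was not tested. Per the series' design text the authors deposited DESeq2 tables with a mean normalized signal, a log2 change, its test score and a p-value per gene, and Xtail tables of translational efficiency with log2 values and p-values; a log2 change given as WT over knockout was turned round.

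Expected counts, deposited unscaled, were rounded and tested with edgeR 4.0.16 (R 4.3.3): TMM, filterByExpr with minimum count 10, quasi-likelihood test, Benjamini-Hochberg adjustment over all genes tested. All 8 libraries of an assay shared 1 fit, with the replicate number as a block; the pooled comparison was a fit of 2 groups; translational efficiency was the assay by genotype interaction over 16 libraries. Intervals are 95% from the same fits. CPM were scaled by TMM and serve within a gene; TPM, deposited by the authors and scaled within each library, serve between genes. DESeq2 was an alternative, with shares over the genes to which it gave an adjusted p. The fits were run on simulated counts with changes set in Fmr1 KO alone. Those counts held no replicate or tissue effect, so that run does not show how reliable the calls here are. Members and gene lists were chosen with earlier results of these data known. Members named by rule are those called in any comparison, and Pde2a, Pde4d, Pde10a, Adcy1, Adcy5, Prkacb, Prkaca, Prkar1b and Prkar2b. The rule also names, in each comparison with WT, the member of at least 50 mean counts with the largest change each way. Their values are given by library, as a range or as a change with its error. Other members are named for unadjusted p-values seen afterwards. All 38 members matched a RefSeq symbol. The result of 1 other gene of the lists is not reported here.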

Additional observations from a re-analysis of the deposited data

Results flagged for a closer look

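In fitted RNA level, the effect of losing Fmr1 on Adcy5 differed by whether Cpeb1 was present. This is the pooled comparison above, taken from the fit of 4 genotypes on the same libraries, so it is not a separate result. That fit was not repeated with a library left out or without the replicate block. With Cpeb1 present, Fmr1 KO was at 297 and 461 CPM and WT at 396 and 501, so these groups overlap. With Cpeb1 lost, double KO was at 472 and 437 and Cpeb1 KO at 235 and 242. The first effect minus the second was -1.19 ± 0.224 on the log2 scale (interaction in edgeR's fit of the 4 genotypes, adjusted p = 0.0405 over all genes tested), and the other 32 tested members did not pass there in RNA or in footprints. Over all genes that difference was called for 2.06% of 13287 in RNA, a share near 1 in 33, and for 0.0653% of 13774 in footprints. The members with the next lowest adjusted p in RNA were at -0.81 ± 0.197 for Pde4a and -0.73 ± 0.178 for Pde10a, both with an edgeR adjusted p of 0.0573. The difference for Adcy5 footprints was -0.0088 ± 0.179. The striatal markers moved the same way in RNA, with 733 and 1010 CPM in WT, 750 and 863 in Fmr1 KO, 630 and 420 in Cpeb1 KO and 796 and 894 in double KO, and their part in the Adcy5 value was not tested.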

How the results depend on the processing

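Over the alternatives run, 246 counts of called members stayed within 1.5 times the value reported and 26 did not. Every reported count except that of the pooled RNA comparison was 0, so a count that stayed shows little stability. Of the log2 changes, 44 came past the threshold, 20 fell short of it and 0 turned direction. These were changes of members with an unadjusted p under 0.05 and of the deleted genes Fmr1 and Cpeb1, so a kept direction shows little. From counts per kilobase, the WT footprint shares were 24.8% for Pde genes and 72.6% for PKA. In the RNA comparison of Cpeb1 KO with WT, 0 called members became 2 with DESeq2 and 1 with no filter on low counts or with only the 2 genotypes compared (45, 4 and 71 genes in all, against 0), and 0 to 1 when a library was left out (1 without double KO library 1 or 2, with 55 and 58 genes in all). For double KO against Cpeb1 KO in RNA, 0 became 2 with DESeq2, 2 without a filter, 3 with the coding length trend removed and 1 with only 2 genotypes (212, 206, 487 and 132 genes in all, against 1), and 0 to 2 when a library was left out (2 without Cpeb1 KO library 2, 1 without double KO library 2). In the pooled RNA comparison 2 became 0 without the replicate block and 1 with the contrast from the fit of 4 genotypes, and 0 to 2 when a library was left out. In footprints of the double against Cpeb1 KO 0 became 1 with 2 genotypes (1701 genes in all, against 772) and 0 to 1 when a library was left out (1 without WT library 1 or 2). For the footprint-to-RNA ratio 0 became 1 (Cpeb1 KO) and 2 (pooled) with DESeq2 (17 and 110 genes in all, against 0 and 2), and the pooled count was 0 to 3 when a library was left out (1 without Cpeb1 KO RNA library 2, 3 without double KO RNA library 2; 297 and 785 genes in all). The cause was not tested. Over all genes the pooled RNA count of 971 was 380 without the replicate block, 274 from the fit of 4 genotypes, and 140 (without Fmr1 KO library 1) to 1433 (without double KO library 2). The labels do not say that equal numbers share an animal or day: differences between libraries 1 and 2 correlated between genotypes at -0.056 to 0.35 in RNA and -0.11 to 0.44 in footprints, so the numbers were not shown to pair samples, and the replicate block changed no other member count.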
